A study of Mus musculus with 1152 samples.

Results

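Clec7a and Itgax encode cell-surface receptors that are known from microglia beside amyloid plaques. They are 2 of the 48587 genes in the deposited count table and were taken by name, with earlier results of these data known. Both passed the filter on low counts. They were described in 1041 single cells sorted as microglia, the resident macrophages of the brain, from cortex, hippocampus and cerebellum. The cells came from wild-type (WT) mice and from 5xFAD mice, a line whose transgenes express mutant human amyloid precursor protein and presenilin under the neuronal Thy1 promoter. The labels give the strain C57BL/6J for both genotypes and no treatment, age, sex or distance of a cell from a plaque. The 5xFAD groups held 183 cells of 4 mice in cortex, 154 cells of 3 mice in hippocampus and 193 cells of 3 mice in cerebellum. The WT groups held 167 cells in cortex, 182 in hippocampus and 162 in cerebellum, from 4 mice each. Regions were taken from the same mice, and a replicate number within a genotype is read here as a mouse. One plate held cortex and hippocampus of WT, another held cerebellum of WT with cortex of 5xFAD, and the last held hippocampus and cerebellum of 5xFAD. In every region the genotypes therefore lay on different plates, and plate and genotype cannot be told apart. Within WT, cerebellum lay on another plate than cortex and hippocampus, and within 5xFAD, cortex lay on another plate than hippocampus and cerebellum. Plate and region cannot be told apart in those comparisons, and the interactions between genotype and region also cross plates.

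Clec7a makes Dectin-1, a C-type lectin receptor that binds beta-glucans of fungal cell walls. Its tail recruits the kinase Syk, and the adaptor Card9 carries the signal on to NF-kappaB. Itgax makes CD11c, an integrin alpha chain that pairs with the beta chain encoded by Itgb2 to form a complement receptor, and it is also widely used as a dendritic cell marker. In mouse brain both genes are known as members of the program of plaque-associated or disease-associated microglia, in which lipid and lysosomal genes such as Apoe, Lpl and Cst7 rise and homeostatic genes such as P2ry12 and Tmem119 fall.

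On GRCm38 Clec7a (ENSMUSG00000079293) lies on the minus strand of chromosome 6 from 129461591 to 129472779, with 2638 bases of exon. Itgax (ENSMUSG00000030789) lies on the plus strand of chromosome 7 from 128129547 to 128150657, with 4803 bases of exon. No other annotated gene overlaps either of them. The promoter windows of RefSeq (GRCm38.p6), from 250 bases before to 50 bases after the start, are chr6:129472730-129473029 on the minus strand and chr7:128129300-128129599 on the plus strand. They are shown because the genes were detected together in 5xFAD cells. Capitals mark GGAA or its complement TTCC, the core bound by ETS factors such as the myeloid regulator PU.1, and TGAGTCA, the AP-1 site.
Clec7a: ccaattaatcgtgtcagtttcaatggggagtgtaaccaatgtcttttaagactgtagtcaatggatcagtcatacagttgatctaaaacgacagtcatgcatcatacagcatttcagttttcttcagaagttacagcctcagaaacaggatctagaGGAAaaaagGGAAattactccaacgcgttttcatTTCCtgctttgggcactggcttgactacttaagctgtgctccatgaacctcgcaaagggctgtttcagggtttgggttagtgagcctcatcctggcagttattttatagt
Itgax: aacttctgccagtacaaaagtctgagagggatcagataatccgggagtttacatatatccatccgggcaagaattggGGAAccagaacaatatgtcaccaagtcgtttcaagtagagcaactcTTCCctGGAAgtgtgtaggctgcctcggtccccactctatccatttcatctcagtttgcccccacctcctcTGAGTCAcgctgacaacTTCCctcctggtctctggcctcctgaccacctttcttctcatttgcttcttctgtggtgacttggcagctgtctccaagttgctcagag
The GGAA core occurs 3 times in the Clec7a window and 4 times in the Itgax window, on either strand. It occurs in 96.0% of 32851 promoter windows, with a median of 3 matches, so its presence is common to nearly all of them. The AP-1 letters TGACTCA or TGAGTCA, which are each other's complement, occur once in the Itgax window, 56 bases before the start. They are not among the letters of the Clec7a window, and 5.20% of all windows hold them. Neither window holds AGGAAGT, a PU.1 site found in 9.35% of windows, or TCACGTG or its complement CACGTGA, MITF and TFE sites found in 3.77% of windows.

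The reads of the kept cells were summed for each mouse and region, giving 22 sums of 35 to 72 cells and 5696201 to 26669220 gene reads. Median reads per cell ranged from 198492 in WT cortex to 343580 in 5xFAD cerebellum. The summed level of 8 microglia markers lay between 43038 and 65856 CPM (reads of a gene scaled to 1000000 gene reads in all) in every sum, and all 8 were detected in every group. The levels of 8 dendritic cell markers summed to between 13.7 and 88.7 CPM. Markers of other blood and border cells were uneven. In 5xFAD cerebellum neutrophil markers summed to between 473 and 15401 CPM and monocyte markers to between 55.7 and 2208 CPM. In the other groups neutrophil markers summed to 369 to 855 CPM and monocyte markers to 0.371 to 396 CPM. In 5xFAD cortex and WT cortex 4 of the 8 neutrophil markers had no read, and in WT hippocampus and WT cerebellum 5 had none. The neutrophil sums of those groups came from the remaining markers alone. Marker genes of border macrophages, the macrophages of the meninges and vessels, summed to 268 to 550 CPM in 5xFAD cerebellum and 9.25 to 672 CPM in WT cerebellum. The range was 1.94 to 298 CPM in WT cortex and 0 to 348 CPM in WT hippocampus. In 5xFAD it was 1.92 to 42.8 CPM in cortex and 3.56 to 7.12 CPM in hippocampus. In all, 48 kept cells carried at least 3 markers of another cell type at 10 CPM or more. In the 12 blank wells no read of either gene was counted, which allows a share of up to 25% of such wells. Errors below are between mice, and intervals over cells cover counting error only.

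Clec7a was highest in 5xFAD hippocampus and lowest in WT cortex and WT hippocampus. In 5xFAD hippocampus the 3 mice had 990, 1168 and 664 CPM, a mean of 941 ± 256 (SD, n = 3). In 5xFAD cortex the 4 mice had 233, 393, 338 and 529 CPM, a mean of 373 ± 123 (SD, n = 4). In 5xFAD cerebellum the 3 mice had 402, 212 and 361 CPM, a mean of 325 ± 100 (SD, n = 3). Every mouse in 5xFAD hippocampus thus lay above every mouse in the other regions of 5xFAD, while the ranges of cortex and cerebellum overlapped. In WT cerebellum the 4 mice had 290, 150, 311 and 175 CPM, a mean of 232 ± 80.8 (SD, n = 4). In WT cortex they had 77.9, 0.989, 19.8 and 19.5 CPM, a mean of 29.6 ± 33.4 (SD, n = 4). In WT hippocampus they had 25.9, 0, 69.0 and 73.2 CPM, a mean of 42.0 ± 35.2 (SD, n = 4), where the mouse at 0 had a limit of 0.330 CPM set by 3 reads of its total. All 4 WT cerebellum values lay above all 8 values of the other WT regions (the same direction without overlap held for 2.49% of genes against hippocampus and 2.19% against cortex). Of those 4 values, 2 lay inside the range of 5xFAD cerebellum and 2 below it.

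**Figure D1:**
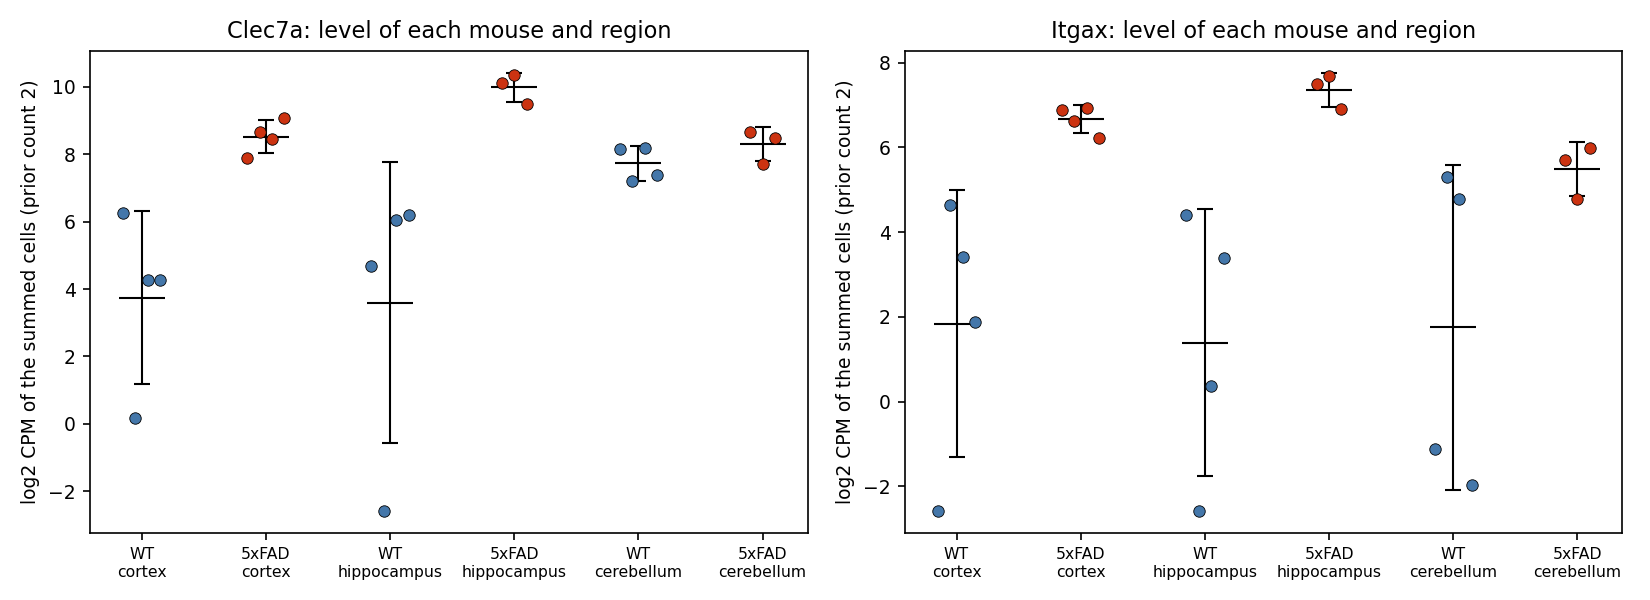
Clec7a and Itgax in the reads summed per mouse and region. The y axis is log2 CPM with a prior count of 2, each point is 1 mouse, and bars give the mean and SD of the 3 or 4 mice of a group. The 3 mice of 5xFAD hippocampus are the highest for Clec7a (log2 CPM 9.49 to 10.34), and WT cerebellum (7.19 to 8.20) sits near 5xFAD cerebellum (7.71 to 8.67).

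Itgax had the same order of 5xFAD regions at lower levels. In 5xFAD hippocampus the mice had 161, 185 and 111 CPM, a mean of 152 ± 37.7 (SD, n = 3). In 5xFAD cortex they had 115, 95.1, 118 and 73.1 CPM, a mean of 100.1 ± 20.6 (SD, n = 4). In 5xFAD cerebellum they had 50.9, 27.6 and 63.8 CPM, a mean of 47.4 ± 18.3 (SD, n = 3). Hippocampus and cortex overlapped, and all mice of both lay above the 3 cerebellum values, as 7.3% and 3.85% of genes did. WT cerebellum split into 2 mice with 40.4 and 29.0 CPM and 2 with 0.302 and 0.0921 CPM, the latter being 2 reads and 1 read. WT cortex had 0, 25.2, 10.7 and 3.54 CPM, with a limit of 0.527 CPM for the mouse at 0. WT hippocampus had 21.1, 0, 1.16 and 10.4 CPM, with a limit of 0.330 CPM for the mouse at 0. The WT values of Itgax therefore ranged from 0 to 40.4 CPM and overlapped between all 3 regions.

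Per kilobase of exon Clec7a stood above Itgax in every group. In 5xFAD hippocampus the levels were 357 ± 96.9 for Clec7a and 31.7 ± 7.85 for Itgax (CPM per kilobase, SD, n = 3). In 5xFAD cortex they were 141.5 and 20.8, in 5xFAD cerebellum 123 and 9.88, and in WT cerebellum 87.9 and 3.63 CPM per kilobase. In bulk sums such as these, fewer cells with the gene and fewer reads of it per cell cannot be told apart, and the cells are taken up below.

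The genotypes were compared on the sums with edgeR's quasi-likelihood test, with Benjamini-Hochberg adjustment over 17358 genes and a threshold of 0.05. In hippocampus 1.01% of the genes tested passed, and Clec7a was among them: it was higher in 5xFAD by 4.65 ± 1.03 on the log2 scale (SE; edgeR adjusted p = 0.0241). Itgax in hippocampus was higher by 4.38 ± 1.46 and did not pass (edgeR adjusted p = 0.238). Among the alternatives it passed by limma's voom with the replicate number as a block, by limma on cell means and without a filter on low counts. In cortex, where 0.294% of genes passed, the differences were 3.73 ± 0.97 for Clec7a (edgeR adjusted p = 0.139) and 3.41 ± 1.37 for Itgax (edgeR adjusted p = 0.392), and neither passed. In cerebellum, where 0.0461% of genes passed, they were 0.55 ± 0.93 for Clec7a (edgeR adjusted p = 0.970) and 1.498 ± 1.34 for Itgax (edgeR adjusted p = 0.844). The approximate 95% intervals were 1.82 to 5.64 for Clec7a in cortex, and -1.28 to 2.38 in cerebellum, so the cerebellum interval includes values up to a log2 of 2.38.

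The values of the mice give another view of the same comparison. In cortex and in hippocampus every 5xFAD mouse lay above every WT mouse for both genes. The same held, in the higher direction, for 3.06% of all genes tested in cortex and 7.21% in hippocampus. In cerebellum neither gene separated the genotypes: the lowest 5xFAD value for Clec7a, 212 CPM, was below the highest WT value, 311 CPM. For Itgax the corresponding values were 27.6 and 40.4 CPM. All 5xFAD mice lay above all WT mice for 4.6% of genes there. The Clec7a call in hippocampus was lost without 5xFAD hippocampus replicate 1 or 2, or without WT hippocampus replicate 1 or 3, with adjusted p between 0.0537 and 0.0958. It was also lost by limma's voom with the replicate number as a block (voom adjusted p = 0.0604). That fit replaced edgeR's model as well, and the correlation within a replicate number was estimated at -0.0084. The part of the block was not tested. The call was lost too with spread estimated from the hippocampus groups alone (edgeR adjusted p = 0.122). By DESeq2 Clec7a passed in hippocampus (DESeq2 adjusted p = 0.00111) and in cortex (DESeq2 adjusted p = 0.0160).

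Whether the genotype difference itself differed between regions was tested as an interaction. For Clec7a it was larger in hippocampus than in cerebellum by 4.10 ± 1.38 on the log2 scale, a contrast that did not pass (edgeR adjusted p = 0.291), where 0.3% of genes did. It was larger in cortex than in cerebellum by 3.18 ± 1.33 (edgeR adjusted p = 0.423), where 0.0807% of genes passed. For Itgax the same contrasts were 2.88 ± 1.94 (edgeR adjusted p = 0.640) and 1.91 ± 1.87 (edgeR adjusted p = 0.844). Between hippocampus and cortex the contrasts were 0.92 ± 1.28 for Clec7a and 0.97 ± 1.84 for Itgax (edgeR adjusted p = 0.925 and 0.968), where 0.0461% of genes passed. A difference between regions in the genotype effect was thus not shown for either gene on the sums.

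Regions were also compared within a genotype. Only hippocampus with cerebellum in 5xFAD and cortex with hippocampus in WT shared a plate. Within 5xFAD, Clec7a was higher in hippocampus than in cerebellum by 1.68 ± 1.03 and than in cortex by 1.44 ± 0.93 on the log2 scale (edgeR adjusted p = 0.693 and 0.730). Itgax differed by 1.83 ± 1.48 and 0.71 ± 1.33 in the same contrasts (edgeR adjusted p = 0.842 and 0.998). Neither gene passed, and 0.219% and 0.0346% of all genes did. For Clec7a the mice of hippocampus did not overlap those of either other region, which held in that direction for 7.3% of genes against cerebellum and 4.96% against cortex. Cortex against cerebellum differed by 0.24 ± 0.94 for Clec7a and 1.12 ± 1.38 for Itgax (edgeR adjusted p = 1.0 and 0.979), where 0.0576% of genes passed. Within WT, a comparison added after the levels were seen, the difference in Clec7a was -2.95 ± 0.94 for cortex minus cerebellum and -2.42 ± 0.92 for hippocampus minus cerebellum (edgeR adjusted p = 0.274 and 0.323). Neither passed, where 0.277% and 0.374% of genes did, though both passed without a filter on low counts and by limma on cell means. The estimate of spread in the fit without that filter is not trusted.

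Single cells showed that the genes were either well covered or not seen. A Clec7a read was present in 282 of 1041 cells, and 32 of these had 1 to 4 reads. The positive cells had a median of 347 reads of Clec7a in 5xFAD hippocampus and 161 in WT cerebellum. An Itgax read was present in 135 cells, with a median of 86 reads and 15 cells with 1 to 4 reads. A cell is called positive below when it has at least 1 read.

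Clec7a-positive cells were a majority in 5xFAD hippocampus and rare in WT cortex and WT hippocampus. The share was 62.0%, 65.5% and 58.7% in the 3 mice of 5xFAD hippocampus. It was 29.8%, 40%, 34.8% and 42.2% in 5xFAD cortex and 38.7%, 25.4% and 40.3% in 5xFAD cerebellum. In WT cerebellum the share was 22.9%, 20%, 19.05% and 22.2%, a narrow range that lay below every 5xFAD mouse. In WT cortex it was 5.41%, 2.33%, 2.22% and 4.76%. In WT hippocampus it was 4.35%, 0%, 10.6% and 9.09%, where 0 of 45 cells allows up to 6.67%. About 1 WT cerebellum cell in 5 was therefore positive, against at most 10.6% in any mouse of the other WT regions.

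Itgax-positive cells were fewer. In 5xFAD hippocampus the share was 28.0%, 31.0% and 28.3%, the closest agreement between mice of any 5xFAD group. In 5xFAD cortex it was 17.02%, 33.3%, 32.6% and 13.3%, so that the mice fell into 2 with high and 2 with low shares. In 5xFAD cerebellum it was 16.1%, 6.78% and 15.3%. The WT shares were 0%, 2.33%, 4.44% and 7.14% in cortex, where 0 of 37 cells allows up to 8.11%. They were 4.35%, 0%, 2.13% and 2.27% in hippocampus and 5.71%, 10.0%, 9.52% and 2.22% in cerebellum.

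**Figure D2:**
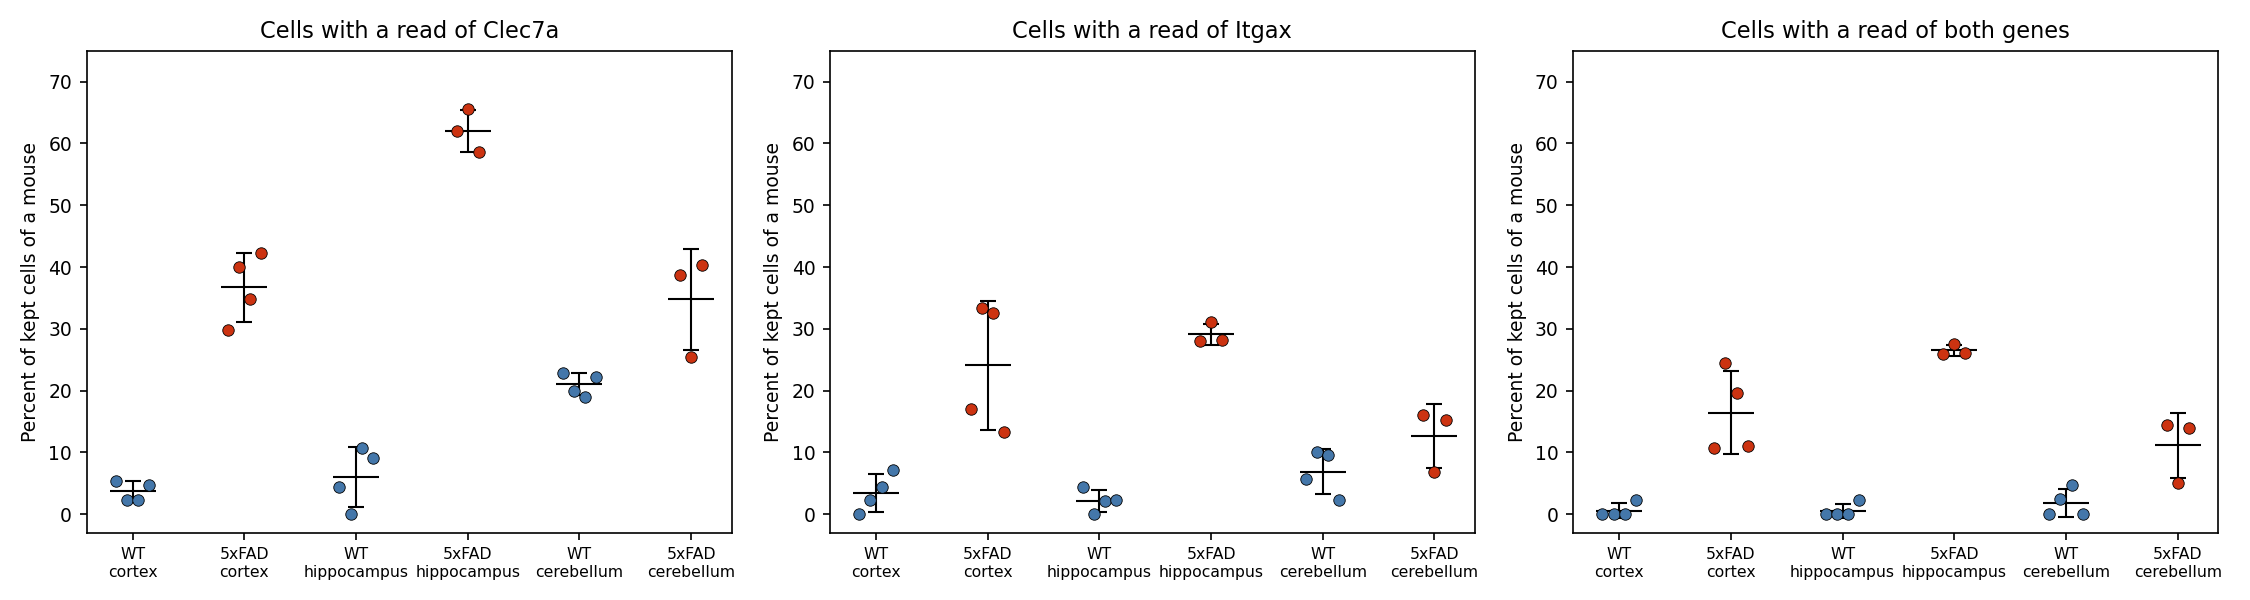
Share of cells with at least 1 read of Clec7a, of Itgax and of both, per mouse and region. The y axis is percent of kept cells, each point is 1 mouse, and bars give the mean and SD of the 3 or 4 mice. Clec7a runs from 62.1% in 5xFAD hippocampus to 3.68% in WT cortex, and the share with both genes stays at or under 4.76% in every WT mouse.

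The shares were tested between the genotypes with an exact permutation test over mice, two-sided, in 9 comparisons. The smallest p such a design can give is 0.0286, which becomes 0.0321 after Benjamini-Hochberg adjustment over the 9. The share of Clec7a-positive cells was higher in 5xFAD by 33.0 points in cortex, 56.1 in hippocampus and 13.8 in cerebellum, each at that smallest exact p, with all 5xFAD mice above all WT mice. The share of Itgax-positive cells was higher by 20.6 points in cortex and 26.9 in hippocampus, again at the smallest exact p. In cerebellum it was higher by 5.86 points, which did not pass (exact permutation p = 0.171). The share with both genes was higher by 15.8 points in cortex, 26.0 in hippocampus and 9.35 in cerebellum at the smallest exact p. Without any 1 of the 4 WT cortex mice, the Itgax difference in cortex missed the threshold (19.4 to 21.8 points, exact permutation p = 0.0571). The cerebellum differences in Clec7a and in both genes depended on how cells were counted. Cells with at least 50000 reads were also thinned to 50000, which left out 6 of 193 cells in 5xFAD cerebellum and 25 of 162 in WT cerebellum. The parts of depth and of the cells left out were not tested. With thinned cells the 5xFAD shares were 24.6% to 33.9% and the WT shares 17.6% to 26.3%. The difference of 8.53 points in Clec7a did not pass (exact permutation p = 0.0857). The difference in both genes was then 6.98 points (exact permutation p = 0.0857), and counting a gene from 5 reads it was 6.75 points (exact permutation p = 0.143).

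Shares between regions of 1 genotype were compared after they had been seen, in 18 comparisons adjusted together. In 5xFAD the share of Clec7a-positive cells was 25.4 points higher in hippocampus than in cortex (exact permutation p = 0.0286, adjusted 0.171). It was 27.3 points higher in hippocampus than in cerebellum, where 3 mice against 3 cannot go below the exact permutation p of 0.1 that was found. In WT it was lower in cortex than in cerebellum, a difference of -17.4 points, and lower in hippocampus than in cerebellum, a difference of -15.01 points (exact permutation p = 0.0286 for each, adjusted 0.171). None of the 18 passed after adjustment, and 3 had the unadjusted exact p of 0.0286.

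The level within positive cells varied less between groups than the share of positive cells. In each mouse the median CPM of its Clec7a-positive cells was taken. Over mice this was 1078 ± 167 CPM in 5xFAD hippocampus (SD, n = 3), 820 ± 210 in 5xFAD cortex (SD, n = 4) and 787 ± 256 in 5xFAD cerebellum (SD, n = 3). In WT cerebellum it was 700.2 ± 53.0 CPM (SD, n = 4). Over all cells of a group the median was 756 CPM in the 6 positive cells of WT cortex and 635 CPM in the 11 of WT hippocampus. WT positive cells were thus few, but their reads were of the same order as those of 5xFAD cells. For Itgax the medians over cells were 432 CPM in 5xFAD hippocampus, 318 in 5xFAD cortex, 266 in 5xFAD cerebellum and 229 in WT cerebellum. Depth differed little with Clec7a status in cortex and cerebellum of 5xFAD: positive and negative cells had a median of 264216 and 255691 reads in cortex, and 349961 and 341027 in cerebellum. In 5xFAD hippocampus the medians were 350512 and 279834 reads. With cells thinned to 50000 reads, which left out 19 of 154 cells there, the shares were 55.8% to 62.0%.

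**Figure D3:**
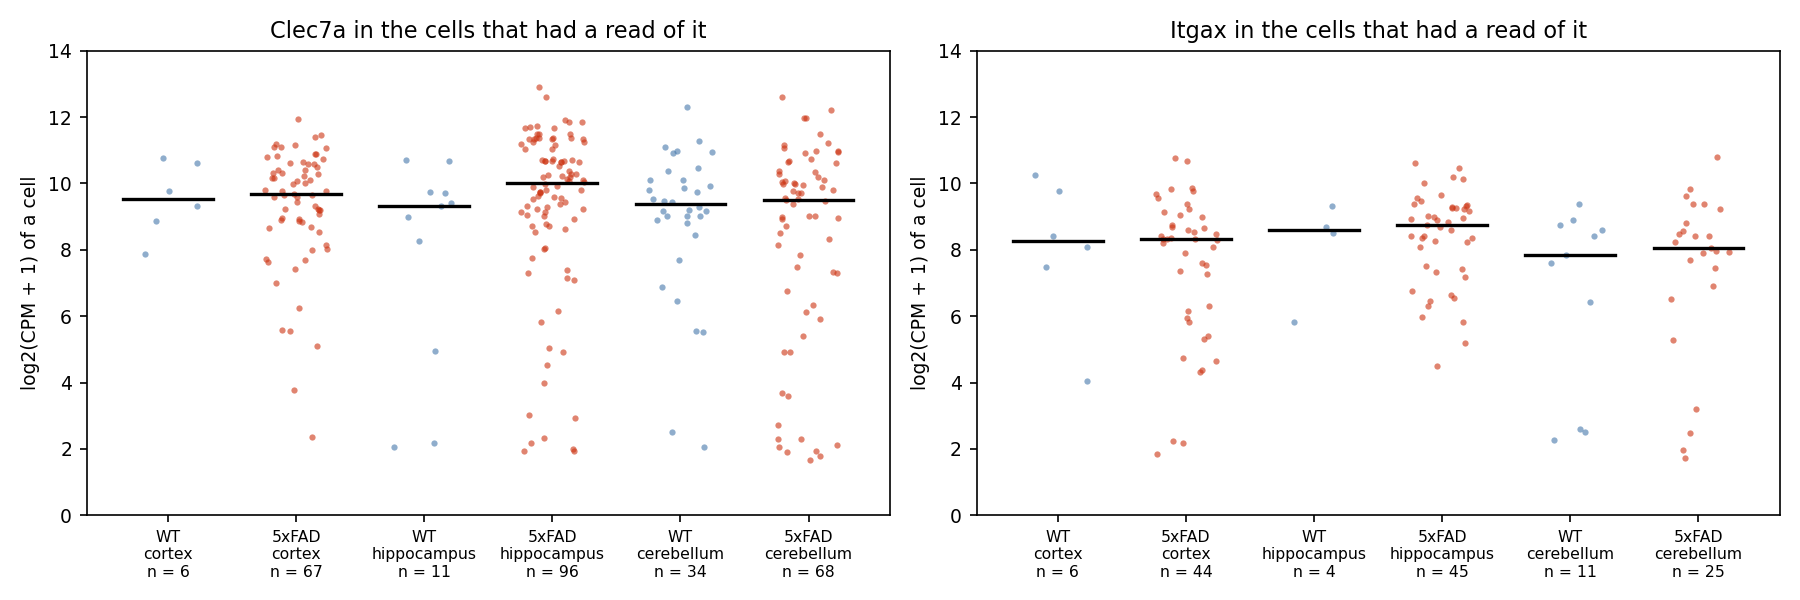
Level of Clec7a and Itgax in the cells with at least 1 read, by group. The y axis is log2(CPM + 1), each point is 1 cell, and the line is the median of the group's positive cells. The groups differ chiefly in the number of points, 96 for Clec7a in 5xFAD hippocampus against 6 in WT cortex, while their medians lie between 635 and 1033 CPM.

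Single cells made up much of the Clec7a sums in WT cortex and WT hippocampus. In WT cortex the top cell of each mouse gave between 67.3% and 100% of that mouse's Clec7a reads. In 5xFAD hippocampus it gave between 9.19% and 14.6%. In WT hippocampus replicates 1, 3 and 4 it gave 77.1%, 48.9% and 65.5%. In WT cerebellum, with 8 to 10 positive cells a mouse, it gave 18.1% to 46.6%. The spread of the sums on the log2 scale was an SD of 2.56 in WT cortex and 0.52 in WT cerebellum against 0.44 in 5xFAD hippocampus.

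In 5xFAD, cells with both genes were more frequent than the separate shares would give. In 5xFAD hippocampus 54 cells had neither gene, 55 had Clec7a alone, 4 had Itgax alone and 41 had both, against 28.1 expected if the genes were detected independently within each mouse. In 5xFAD cortex the counts were 102, 37, 14 and 30, with 16.1 expected to have both. In 5xFAD cerebellum they were 122, 46, 3 and 22, with 9.32 expected. Cells with Itgax alone were the rarest class in every region of 5xFAD. In all 10 of the 5xFAD sums the observed number with both exceeded the expected one. The odds ratio, with 0.5 added to each count, ranged from 4.77 to 15.3 with a median of 8.06. Thinning to 50000 reads kept only cells with at least that many. The ratios then ranged from 3.33 to 21.3 in cortex, 3.91 to 8.91 in hippocampus and 1.84 to 17.5 in cerebellum, and all stayed above 1. In WT cerebellum 3 cells had both, against 2.24 expected. The odds ratio there was 1.58 over all cells and 0.6 to 5.0 by mouse.

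**Figure D4:**
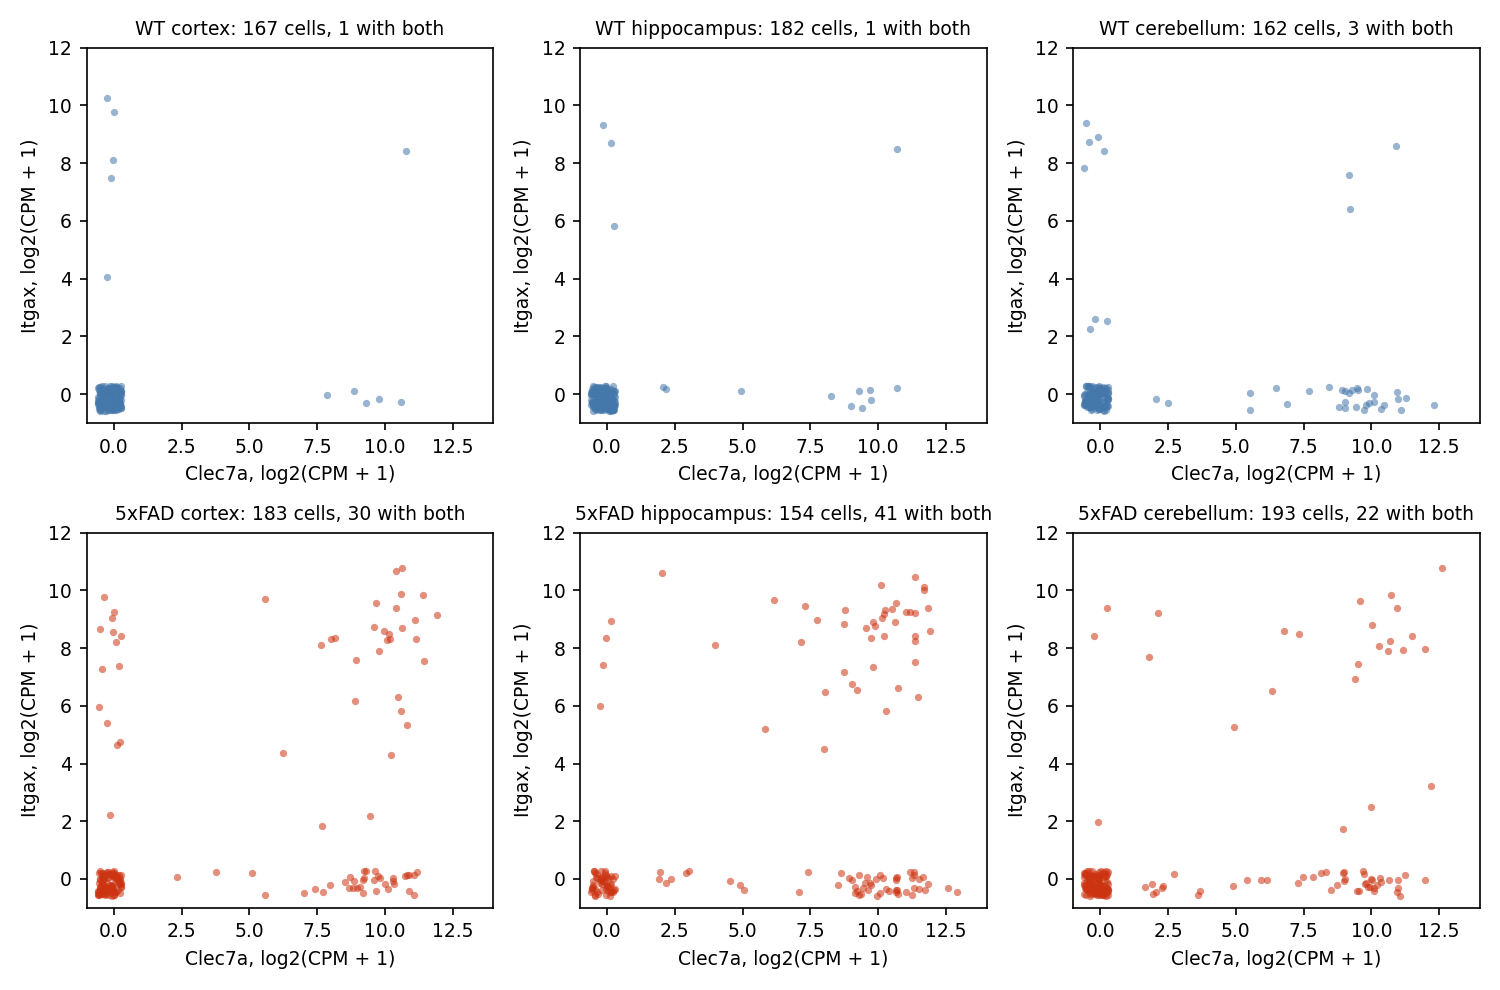
Clec7a against Itgax in each kept cell, with 1 panel per group. Both axes are log2(CPM + 1), each point is 1 cell, and cells at 0 are spread at random around 0 so that they can be seen. Cells with both genes, away from both axes, number 41 in 5xFAD hippocampus and 1 in WT hippocampus, and most positive cells of WT cerebellum (31 of 42) lie along the Clec7a axis.

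The overlap was lopsided. Of Itgax-positive cells, 91.1% had Clec7a in 5xFAD hippocampus (41 of 45, exact 95% interval 78.8% to 97.5%). The share was 88.0% in 5xFAD cerebellum (22 of 25, 68.8% to 97.5%) and 68.2% in 5xFAD cortex (30 of 44, 52.4% to 81.4%). Of Clec7a-positive cells, 42.7% had Itgax in 5xFAD hippocampus, 44.8% in 5xFAD cortex and 32.4% in 5xFAD cerebellum. In WT cerebellum 3 of 34 Clec7a-positive cells had Itgax, or 8.82% (exact 95% interval 1.86% to 23.7%). By mouse this share was 0%, 12.5%, 25% and 0% in WT cerebellum and 37.5%, 20.0% and 34.5% in 5xFAD cerebellum, so the mice overlapped. WT cortex and WT hippocampus had 1 cell each with both genes. The median of Clec7a was higher in 5xFAD cells that had Itgax, with wide overlap: its median over cells was 1154 CPM with and 604 CPM without Itgax in 5xFAD cortex, 1027 and 518 CPM in 5xFAD cerebellum, and 1124 and 974 CPM in 5xFAD hippocampus, where the quartiles were 423 to 2289 with and 507 to 1889 without. In WT cerebellum it was 588 CPM in the 3 cells with Itgax and 697 CPM in the 31 without.

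Other genes of the program differed between these classes. Values are means of log2(CPM + 1) over the cells of a class within a mouse, then over mice, and they are a description with no test. Cst7, the protease inhibitor cystatin F, went in 5xFAD hippocampus from 2.24 ± 0.62 in cells with neither gene to 7.74 ± 0.35 with Clec7a alone and 9.72 ± 0.25 with both (SD, n = 3). In 5xFAD cortex it was 0.91 ± 0.68, 4.16 ± 2.43 and 9.28 ± 2.03 in the same classes (SD, n = 4). In 5xFAD cerebellum it was 0.37 ± 0.24, 1.51 ± 1.24 and 4.73 ± 3.20 (SD, n = 3). Cst7 was thus highest in cells with both genes in each region, though the spread in cerebellum was wide. In 5xFAD hippocampus a Cst7 read was present in 35.2% of cells with neither gene and 95.1% of cells with both, and in 5xFAD cerebellum in 9.02% and 59.1%.

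Apoe, the lipid carrier, was 7.37 ± 0.85 with neither gene, 11.1 ± 1.40 with Clec7a alone and 13.1 ± 0.34 with both in 5xFAD hippocampus. In 5xFAD cerebellum it was 4.92 ± 0.95, 8.38 ± 1.14 and 8.36 ± 2.36, so that Clec7a alone and both stood level there. In WT cerebellum Apoe was 6.10 ± 2.01 in the 31 cells with Clec7a alone, 7 of which carried border macrophage markers, and 3.40 ± 0.60 in the 120 with neither, 6 of which did. Without cells of other types these were 3.53 ± 1.23 and 2.80 ± 0.20, a smaller step. In 5xFAD cerebellum Apoe without them was 4.27 ± 0.86 with neither, 7.42 ± 1.21 with Clec7a alone and 8.18 ± 2.36 with both. Trem2, the lipid-sensing receptor needed for the full program, was 9.51 ± 0.88, 11.3 ± 0.53 and 11.5 ± 0.09 in 5xFAD hippocampus. Its step between classes was smaller in 5xFAD cortex, 10.6 ± 0.61 with neither gene and 11.6 ± 0.36 with both.

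Of the homeostatic genes, 3 were followed by class: Tmem119, P2ry12 and Cx3cr1. Their means were lower in cells with both genes than in cells with neither in 5xFAD cortex and, without cells of other types, in 5xFAD cerebellum. In 5xFAD hippocampus Tmem119 was lower, P2ry12 changed little and Cx3cr1 was higher. Tmem119, a microglial membrane protein, was 11.8 ± 0.45 with neither gene and 9.02 ± 2.10 with both in 5xFAD cortex, 11.1 ± 0.60 and 9.67 ± 0.88 in 5xFAD cerebellum, and 10.1 ± 0.22 and 9.39 ± 0.88 in 5xFAD hippocampus. Without cells of other types Tmem119 in 5xFAD hippocampus was 10.3 ± 0.37 and 9.29 ± 0.97. In 5xFAD cortex cells with Itgax alone had 12.03 ± 0.61 (n = 3 mice), as high as cells with neither. P2ry12, the ADP receptor of resting microglia, was 12.7 ± 0.25 with neither and 10.5 ± 1.15 with both in 5xFAD cortex. In 5xFAD hippocampus it was 10.8 ± 0.76 and 10.8 ± 0.65 in these classes, the same to 3 digits. In 5xFAD cerebellum, without cells of other types, it was 12.1 ± 0.41 and 10.8 ± 0.55. In WT cerebellum P2ry12 was 11.2 ± 0.32 with neither gene and 9.54 ± 0.78 with Clec7a alone, and Tmem119 was 10.9 ± 0.79 and 9.02 ± 1.04 (n = 4 mice). Without cells of other types P2ry12 there was 11.7 ± 0.29 and 10.3 ± 1.09, and Tmem119 was 11.1 ± 0.84 and 10.2 ± 1.00. Cx3cr1, the fractalkine receptor, was 10.6 ± 0.18 with neither and 11.7 ± 0.19 with both in 5xFAD hippocampus, and 12.5 ± 0.28 and 11.3 ± 0.62 in 5xFAD cortex, opposite directions in the 2 regions. In 5xFAD cerebellum, without cells of other types, Cx3cr1 was 12.3 ± 0.15 and 11.7 ± 0.79. Cells with both genes also had more genes detected, a median of 3258 against 2696 with neither in 5xFAD hippocampus, and its part in these levels was not tested.

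**Figure D5:**
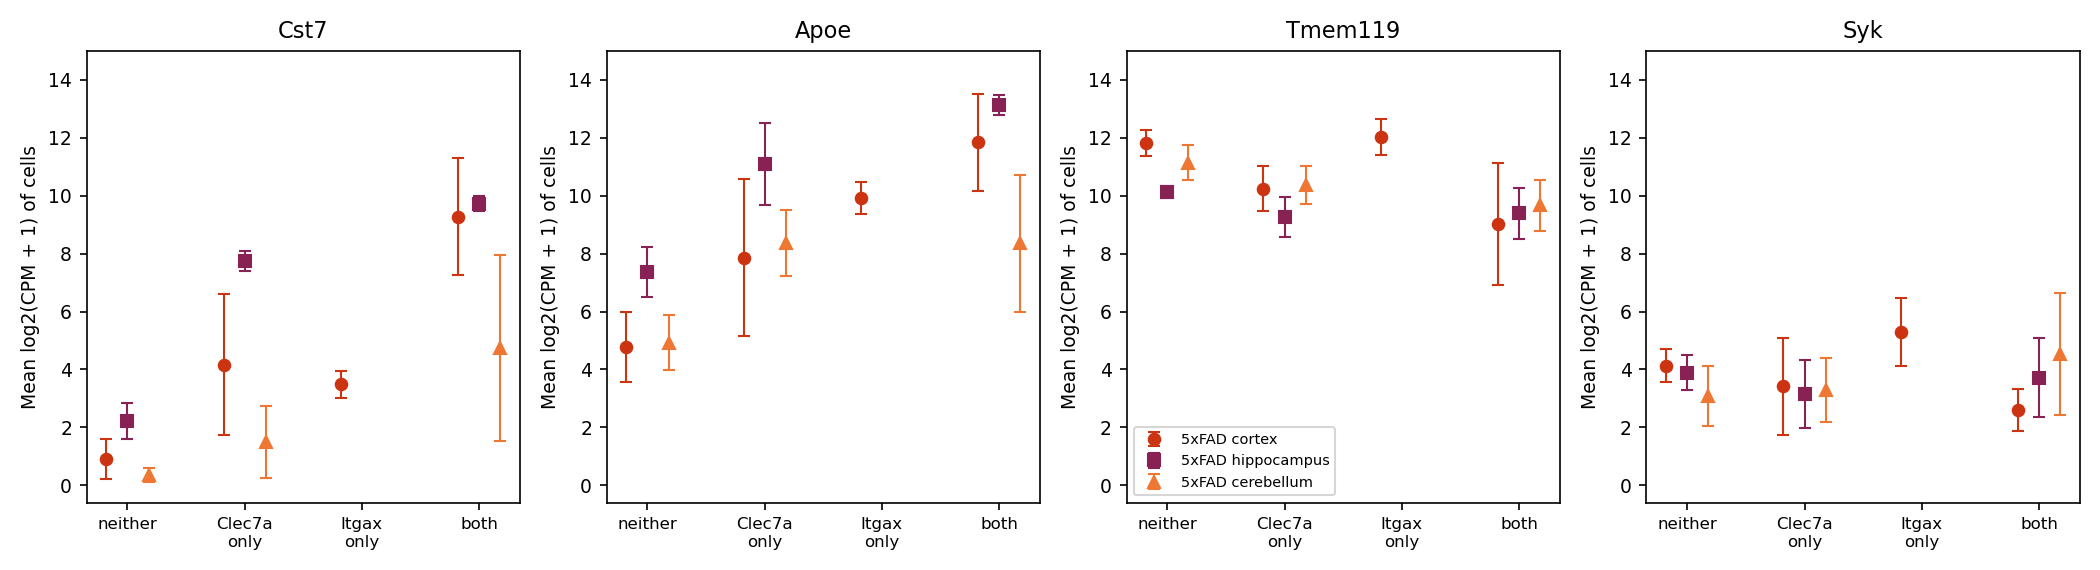
Cst7, Apoe, Tmem119 and Syk in 5xFAD cells sorted by detection of Clec7a and Itgax. The y axis is mean log2(CPM + 1), and points and bars are the mean and SD over mice with at least 3 cells in the class, drawn where at least 2 mice had them. Cst7 climbs from 2.24 to 9.72 in 5xFAD hippocampus between cells with neither gene and cells with both. Syk ranges from 2.60 to 5.30 over the classes and regions, with cells of other types included.

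Among the direct partners of the receptors, the shared beta chain passed the test in hippocampus. Itgb2, the beta chain that CD11c needs to reach the cell surface, was higher in 5xFAD hippocampus by 0.68 ± 0.15 on the log2 scale (edgeR adjusted p = 0.0173). In cortex its difference was 0.36 ± 0.14 (edgeR adjusted p = 0.390) and in cerebellum 0.08 ± 0.15 (edgeR adjusted p = 0.972). In 5xFAD hippocampus it was 7.13 ± 0.85 with neither gene, 8.74 ± 0.29 with Clec7a alone and 9.86 ± 0.92 with both, on the scale of the classes. Without cells of other types it was 7.42 ± 0.82, 8.74 ± 0.29 and 9.99 ± 0.72 there. The other regions lacked the step at Clec7a alone. Without cells of other types Itgb2 was 8.30 ± 0.87, 6.78 ± 0.90 and 9.56 ± 0.98 in these classes in 5xFAD cortex. In 5xFAD cerebellum it was then 7.89 ± 0.47, 7.87 ± 1.66 and 9.18 ± 1.35. Itgam, the alpha chain of CD11b and a target of the sort, differed by 0.58 ± 0.16 in cortex, 0.03 ± 0.18 in hippocampus and 0.30 ± 0.18 in cerebellum, and did not pass (edgeR adjusted p = 0.212, 0.994 and 0.611). Itgam stayed between 596 and 1197 CPM in all 22 sums, while Itgax ranged from 0 to 185 CPM. The step at Clec7a alone in 5xFAD hippocampus was not particular to Itgb2. Without cells of other types Itgam was 7.07 ± 1.05 with neither gene, 8.51 ± 0.78 with Clec7a alone and 7.88 ± 0.82 with both there. Trem2 rose between the first 2 classes too, as given above, while Syk went from 4.06 ± 0.73 to 3.16 ± 1.17. The part of depth in these steps was not tested. Of 25 other integrin chains 21 could be tested. Itgb2 was the 1 that passed in hippocampus, and none passed in cortex or cerebellum by edgeR, where 3 and 0 had an unadjusted p under 0.05 and DESeq2 called 1 and 0. Over all genes tested, an unadjusted edgeR p under 0.05 was found for 11.7% in cortex, 13.1% in hippocampus and 8.92% in cerebellum, and DESeq2 called 2.72%, 4.31% and 1.87%. The counts of this list and of those that follow are to be read against these shares. The median differences of the integrin chains were 0.28 in cortex, 0.34 in hippocampus and 0.08 in cerebellum, beside -0.09, 0.10 and -0.01 over all genes tested. The other alpha chains that pair with Itgb2 were low: Itgad was at most 8.30 CPM and Itgal at most 20.0 CPM.

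Of 18 genes whose products switch integrins on, such as Tln1 and Fermt3, none passed between the genotypes in any region by edgeR. At an unadjusted p under 0.05 there were 4 in cortex, 2 in hippocampus and 3 in cerebellum, and DESeq2 called 0, 1 and 1. Rap1b, a small GTPase that activates integrins, was called lower in the interaction of hippocampus with cerebellum, and Rap1b and Ptk2b, a focal adhesion kinase, were called between hippocampus and cerebellum in WT. Among 6 testable ligand genes of beta-2 integrins, such as C3 and Icam1, none passed in any region by edgeR or DESeq2, and 2, 3 and 3 had an unadjusted p under 0.05 in cortex, hippocampus and cerebellum.

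Downstream of Dectin-1, Syk differed by 0.09 in cortex, -0.24 in hippocampus and -0.22 in cerebellum on the log2 scale and did not pass (edgeR adjusted p = 0.978, 0.805 and 0.913). By class Syk was 3.89 ± 0.60 with neither gene and 3.72 ± 1.36 with both in 5xFAD hippocampus. Without cells of other types it was 4.06 ± 0.73 and 3.63 ± 1.44 there. In 5xFAD cortex, also without cells of other types, it was 4.09 ± 0.54 with neither and 2.10 ± 1.53 with both, in 29 of 30 cells with both. In 5xFAD cerebellum it was then 2.87 ± 1.20 and 4.69 ± 2.09, the opposite direction. Fcer1g, the signalling adaptor of Fc and some lectin receptors, differed by 0.38 ± 0.13 in hippocampus and did not pass (edgeR adjusted p = 0.237). It was 7.81 ± 0.65 in cells with neither gene and 9.55 ± 0.11 in cells with both there. In cerebellum its mean log2 CPM went the other way, 9.31 ± 0.10 in 5xFAD (SD, n = 3) and 9.75 ± 0.08 in WT (SD, n = 4). In cortex the means were 9.76 in 5xFAD and 9.74 in WT. Of 23 genes of Dectin-1 signalling, Card9, Bcl10, Malt1 and Plcg2 among them, none passed in any region by edgeR. At an unadjusted p under 0.05 there were 2 in cortex, 5 in hippocampus and 4 in cerebellum, and DESeq2 called 2, 3 and 1, so the 2 of 23 in cortex were a smaller share than the 11.7% over all genes. The median differences of these genes were 0.13, -0.17 and 0.17.

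No other C-type lectin receptor passed with Clec7a. Of 20 listed, 18 were tested and none passed in any region by edgeR, with 9, 6 and 2 at an unadjusted p under 0.05 and 5, 4 and 0 called by DESeq2 in cortex, hippocampus and cerebellum. Of those at an unadjusted p under 0.05, 6 of 9 were lower in cortex and 3 of 6 in hippocampus. Their median differences were -1.16 in cortex, 0.56 in hippocampus and 0.25 in cerebellum over all tested lectins. Many lay near 0, such as Clec4d at no more than 6.26 CPM and Clec4e at no more than 5.81 CPM, so these medians rest partly on few reads. Clec5a, a lectin that signals through Tyrobp, lay between 118 and 315 CPM in all sums. Clec4a2 ranged from 43.1 to 82.3 CPM in 5xFAD cortex and from 109.8 to 141 CPM in WT cortex, a direction opposite to Clec7a, and it is named here after its values were seen.

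The disease-associated program is the group of genes in which Clec7a and Itgax are usually listed, and both were left out of the counts here. This list and the homeostatic list below were chosen with earlier results of these data known. Of 25 other members, 17 were higher in 5xFAD hippocampus, 10 in cortex and none in cerebellum by edgeR, and none was lower. Over all genes tested 0.76% were called higher in hippocampus and 0.242% in cortex. In cerebellum 10 had an unadjusted p under 0.05, where 8.92% of all genes did, and DESeq2 called 2, where it called 1.87% of all genes. The median difference was 3.39 in hippocampus, 1.38 in cortex and 0.69 in cerebellum. Ctsb and Ctsd, lysosomal proteases, were higher in hippocampus by 1.69 ± 0.10 and 1.54 ± 0.14, and in cortex by 0.90 ± 0.10 and 0.93 ± 0.13. Cd63, a tetraspanin of endosomes, Cd68, a lysosomal glycoprotein, and Tyrobp, the signalling adaptor of Trem2, passed in both regions, at 1.87, 1.02 and 1.59 in hippocampus and 1.30, 0.87 and 0.77 in cortex. Apoe was higher in hippocampus by 5.08 ± 1.00 (edgeR adjusted p = 0.00838) and Cst7 by 8.06 ± 1.59 (edgeR adjusted p = 0.00848). In cortex Apoe differed by 2.97 ± 0.89 and Cst7 by 6.16 ± 1.45 and neither passed (edgeR adjusted p = 0.261 and 0.0857), as for Clec7a. Trem2 was higher by a smaller step, 0.82 ± 0.11 in hippocampus and 0.61 ± 0.10 in cortex, and passed in both (edgeR adjusted p = 9.75e-05 and 0.00371).

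Of 14 homeostatic genes, 5 were lower in 5xFAD hippocampus, 2 in cortex and none in cerebellum by edgeR. Over all genes tested 0.253% were called lower in hippocampus and 0.0518% in cortex. In cerebellum 8 had an unadjusted p under 0.05, 6 of them higher, and DESeq2 called 3, beside the same 8.92% and 1.87% of all genes. P2ry12 was lower in both regions, with differences of -1.07 ± 0.09 in hippocampus and -0.50 ± 0.08 in cortex (edgeR adjusted p = 3.21e-07 and 0.00412). Tmem119 was lower in hippocampus, a difference of -0.80 ± 0.14 (edgeR adjusted p = 0.00366), and Cx3cr1 likewise, at -0.37 ± 0.09 (edgeR adjusted p = 0.0371). Crybb1, a crystallin marking microglia, differed by -2.06 ± 0.28 in hippocampus and -1.18 ± 0.24 in cortex and passed in both, and Selplg, the selectin ligand, differed by -0.72 ± 0.09 in hippocampus and passed.

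Over the 22 sums, with predicted, ribosomal and mitochondrial genes left out, the genes whose log2 CPM ran most like Clec7a were Lpl (Pearson r = 0.889), Axl (0.875), Tmem205 (0.857), Apoe (0.850), Ifitm3 (0.844), Sdc3 (0.828) and Ptchd1 (0.827). Those most like Itgax were Ank (0.856), Renbp (0.823), Ly9 (0.814), Cux1 (0.810), Cox6a2 (0.807), Tlr2 (0.791), Plek (0.787) and Igf1 (0.783). The lists had 0 genes in common. Clec7a and Itgax themselves had r = 0.537, and Itgax ranked 458 among the genes most like Clec7a. The sums share plates and regions, so these values describe them and carry no test. Like Clec7a, Lpl and Axl were high in WT cerebellum, with mean log2 CPM of 6.42 and 7.42 there against 0.45 and 1.08 in WT cortex. Ank, a pyrophosphate transporter, was not, at 5.99 in WT cerebellum and 5.14 in WT cortex.

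Cells with markers of other types carried part of the Clec7a reads in WT cortex and both cerebellum groups. In each cerebellum group 13 cells carried border macrophage markers. In WT cerebellum 7 of them had Clec7a and gave 19.2% of the group's Clec7a reads (1549 of 8080). In 5xFAD cerebellum 4 of them had it and gave 3.28% (690 of 21013). None of these cells had an Itgax read. In 5xFAD cerebellum 5 further cells carried neutrophil markers and had no read of either gene. Without all cells carrying markers of another type, the share with Clec7a was 18.1% of the 149 cells left in WT cerebellum and 35.7% of 171 in 5xFAD cerebellum. In WT cortex 1 such cell gave 44.7% of the Clec7a reads (342 of 765). Without these cells the Clec7a difference in cortex was 4.72 on the log2 scale and passed (edgeR adjusted p = 0.0197), in hippocampus it was 4.64 and passed (edgeR adjusted p = 0.0116), and in cerebellum it was 0.82 and did not (edgeR adjusted p = 0.857).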

How the data were processed

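Single cells sorted by antibodies to CD11b, CD45, Ly6C, Ly6G and CD206 were sequenced as full-length Smart-seq2 libraries, which carry no molecular identifiers, in 1152 wells of 3 plates, 12 of them blank. The deposited values are raw counts, reads per gene and well, made with STAR 2.5.2b and featureCounts 1.5.1 on GRCm38, per the submitters' processing notes. Annotation and strand setting were not stated. Expression was used as deposited for 48587 genes, apart from 96 wells of plate columns 1 and 2. Those columns hold sums: column 1 includes wells 10 to 19, and column 2 wells 20 to 24, of the same plate row. Subtracting the named wells gave 0 negative values of 4673184, while subtracting those of the next row gave 506416.

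Cells with at least 500 genes, at least 10000 gene reads and at most 20% mitochondrial reads were kept, 1041 of 1140. Their counts were summed per mouse and region and tested with edgeR 4.0.16 in R 4.3.3 (TMM, filterByExpr, 1 term per group, quasi-likelihood). DESeq2 1.42.0 and limma 3.58.1 were alternatives. Log2 CPM used a prior count of 2, and levels per cell log2(CPM + 1). The test was checked on simulated counts for hippocampus with 17358 genes: it called 41 of 100 genes changed by a log2 of 2, 95 of 100 changed by 4, and 5 others. The changed genes were drawn from those above a mean level and raised from their mean over all sums. Genes carried by few cells, as both members were in WT hippocampus, were not imitated, so these rates need not hold for them. Shares were compared by exact permutation over mice.

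The members and gene lists were chosen with earlier results of these data known. Genes named are the members, a fixed set of 10, up to 4 called genes of each list with the smallest p, and the 8 genes most correlated with each member, without predicted, ribosomal and mitochondrial genes (1 of these is not reported here); list members given as examples or by level were chosen for their role. Region comparisons within WT and of shares were added after seeing the data. Same-numbered samples did not deviate together: over 21 pairs and 4668 genes r was -0.0405 to 0.0495, so the number was not used as a pairing.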

Additional observations from a re-analysis of the deposited data

Results flagged for a closer look

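In the share of cells with both genes, replicate 4 stood apart in WT cortex, at 2.38%, and in WT hippocampus, at 2.27%. The other 3 mice of each group had no such cell, and each value is 1 cell. A gap of this kind was looked for in 20 groups of 4 values, and chance marks about 1 in 20.

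Among 99 wells that failed the cell filter, 3 held Clec7a reads, 816 in all, and 1 held 13 Itgax reads, while the 12 blank wells held none. All 3 were labelled 5xFAD, 1 from cerebellum and 2 from hippocampus, and the Itgax well was labelled 5xFAD cerebellum.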

How the results depend on the processing

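On the sums, the genotype differences of both genes kept their sign under every alternative run. The Clec7a call in hippocampus (4.65) was lost with stricter cell limits (4.60), without plate columns 1 and 2 (4.74), with only the groups compared (4.68) and by voom with the replicate block (6.54). Leaving out 1 mouse gave 4.24 to 5.10. Clec7a in cortex passed with thinned cells (3.796), without cells of other types (4.72), by DESeq2 (3.66), by limma on cell means (3.06) and without a filter on low counts (3.798). Without that filter Itgax passed in cortex (3.45) and hippocampus (4.40), as did Clec7a between hippocampus and cerebellum (1.64) or cortex (1.45) in 5xFAD, and the interactions 4.04 and 3.17 for Clec7a and 2.83 for Itgax. The estimate of spread without the filter is not trusted, and these calls are given only as an alternative. Limma on cell means also called Itgax in cortex (1.53) and hippocampus (2.25), Clec7a (2.87) and Itgax (1.49) between hippocampus and cerebellum and Clec7a between hippocampus and cortex (2.34) in 5xFAD, and the interactions 4.27 and 2.22 for Clec7a and 1.77 for Itgax. Within WT, Clec7a passed for hippocampus and cortex against cerebellum without the filter (-2.40 and -2.98) and by limma on cell means (-1.40 and -1.52). The cause was not tested. Genes called ranged from 25 to 476 in cortex (51 in the report), 113 to 748 in hippocampus (176) and 0 to 324 in cerebellum (8); columns as deposited gave the 0 and DESeq2 the 324 and 748.

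With the replicate block, limma's voom with duplicateCorrelation for genotypes and edgeR within genotypes, Itgax in hippocampus passed (6.41, adjusted p = 0.0294), and Itgax turned sign in the interaction of hippocampus with cortex (-1.15) and, within WT, in hippocampus against cerebellum (1.41) and cortex (1.76). Beside these and the Clec7a call in hippocampus, no call for the 2 genes changed in these fits. For genotypes the model and the block were changed together, so their parts cannot be told apart. Clec7a turned sign between hippocampus and cortex in WT without plate columns 1 and 2 (-0.15) and in that interaction without other cell types (-0.084). Leaving out 1 mouse gave sign changes in small differences: Clec7a between cortex and cerebellum in 5xFAD (-0.028 to 0.41), the interaction of hippocampus with cortex for Clec7a (-0.19 to 1.37) and Itgax (-0.057 to 2.03), and Itgax within WT for cortex against cerebellum (-1.85 to 0.060) and hippocampus against cortex (-1.32 to 0.78).

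For shares, the columns as deposited ended the calls for Clec7a in cortex (26.6) and cerebellum (1.55), Itgax in cortex (16.7) and both in cortex (13.1), and turned the sign in cerebellum for Itgax (-5.21) and both (-2.07) and for Clec7a between hippocampus and cortex in WT (-4.09). Clec7a in cerebellum also missed the threshold at 10 CPM or more (10.3), with thinned cells (8.53), stricter limits (12.2) and without plate columns 1 and 2 (10.6), and both in cerebellum at 5 reads or 10 CPM (6.75) and thinned (6.98). Within WT, hippocampus against cortex turned sign with thinned cells for Itgax (0.144) and both (0.5682), and with stricter limits for both (0.581). Leaving out 1 mouse gave Clec7a in hippocampus 54.0 to 57.7 and in cerebellum 11.03 to 18.5, Itgax in cortex 17.5 to 24.2 and hippocampus 25.9 to 27.6, both in hippocampus 25.5 to 26.6 and cerebellum 7.67 to 12.4, Clec7a between cortex and cerebellum in 5xFAD -2.80 to 4.63, and both between hippocampus and cortex in WT -0.595 to 0.5682. In hippocampus and cerebellum leaving out 1 mouse leaves no exact p under 0.0667, so such a loss says nothing of stability. In cortex Itgax missed the threshold without any 1 WT mouse (exact p = 0.0571), where 0.0286 could be reached.

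Groups of 3 or 4 mice, and sums of WT cortex and WT hippocampus that rest on few cells, limit these calls. Counts are reads, not molecules, and a cell without a read is not shown to lack the RNA.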
